A study of Mus musculus with 6 samples.

Results

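The genes described here are 50 cell cycle genes sorted into role groups by the phase in which their products act. There were 2 G1 cyclins, 19 genes of the G1/S transition and DNA replication, 26 genes of G2 and mitosis (G2/M), and 3 inhibitors of cyclin-dependent kinases (CDKs). They were taken by symbol from the deposited table of raw counts. All 50 were found among its 55291 symbols, and all 50 were among the 14475 genes that passed the filter on low counts. RNA was sequenced from natural killer (NK) cells and type 1 innate lymphoid cells (ILC1s), the 2 cell types of the study, with 3 libraries each. Both came from tumours that grew for 14 days after MC38 cells, a colon carcinoma line from C57BL/6 mice, had been injected under the skin of wild-type C57/BL6 mice. The labels name no drug and no altered gene in either group. The single comparison asks how the RNA content of the 2 cell types differs in this tumour model. The sources used here do not give the age and sex of the mice, any pooling of animals or the surface markers used for the sort, and the tumour is a transplanted line under the skin rather than one that arose in the gut. Nor is it stated that the replicates were taken from different mice. The p-values therefore reflect how far these particular libraries scatter, which may be technical.

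A dividing cell passes from G1 through S phase, in which DNA is copied, and G2 into mitosis. D-type cyclins with CDK4 or CDK6 phosphorylate the retinoblastoma protein, which frees E2F factors to switch on genes for cyclin E, nucleotide synthesis and the replication machinery. Genes of G2 and mitosis are switched on later, by the MuvB complex with B-MYB (Mybl2) and FOXM1 (Foxm1), and their promoters often hold a cell cycle homology region (CHR) near the transcription start and CCAAT boxes bound by NF-Y. CDK inhibitors such as p21 (Cdkn1a) and p27 (Cdkn1b) hold the kinases back. In lymphocytes the genes of replication and of mitosis are low at rest and come on when cytokines or antigen drive division.

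Because the G2/M genes varied together among the libraries, the promoters of the role groups are shown first. RefSeq promoter windows on GRCm38.p6, from 250 bases before to 50 after an annotated start, were matched by symbol for 40 of the 50 genes. Aurkb, Ccna2, Ccnd2, Ccne2, Foxm1, Gins2, Kif20a, Mcm4, Stmn1 and Tpx2 had no entry. Each window was searched on both strands for the CHR motif TTTGAA, the NF-Y box CCAAT and an E2F motif, TTTNNCGC, and matches could share bases. The windows below are printed 5′ to 3′ on the strand of the gene, with these matches, or their reverse complements, in capitals. Cyclin B2 (Ccnb2), Cdc20, Cdk1 and Cenpf are G2/M genes that differed widely between libraries, and Cenpa is the G2/M gene that differed least. Each of their windows holds TTTGAA, but G2/M genes without it differed widely as well. The log2 ratio of NK replicate 3 to the other NK libraries ran from -0.12 to 4.77 for the 14 G2/M genes with TTTGAA. It ran from 1.79 to 3.10 for the 6 with an entry but without TTTGAA. Mcm6 is a replication gene whose window holds 3 matches of the E2F motif.
Ccnb2, cyclin B2, chr9:70421505-70421804, reverse strand: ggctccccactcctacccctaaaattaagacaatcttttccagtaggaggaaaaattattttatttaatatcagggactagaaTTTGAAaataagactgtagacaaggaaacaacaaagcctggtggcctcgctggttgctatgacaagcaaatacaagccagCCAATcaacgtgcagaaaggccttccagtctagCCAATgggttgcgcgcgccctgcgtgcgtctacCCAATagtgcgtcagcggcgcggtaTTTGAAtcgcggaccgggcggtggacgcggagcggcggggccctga
Cdc20, the activator of the anaphase-promoting complex, chr4:118437294-118437593, reverse strand: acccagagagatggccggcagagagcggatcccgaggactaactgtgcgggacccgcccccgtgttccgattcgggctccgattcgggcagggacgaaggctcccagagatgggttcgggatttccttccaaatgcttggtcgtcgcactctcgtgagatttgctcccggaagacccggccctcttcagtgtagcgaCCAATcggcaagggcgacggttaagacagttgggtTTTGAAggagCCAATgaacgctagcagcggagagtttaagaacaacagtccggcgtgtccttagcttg
Cdk1, the kinase that drives entry into mitosis, chr10:69352863-69353162, reverse strand: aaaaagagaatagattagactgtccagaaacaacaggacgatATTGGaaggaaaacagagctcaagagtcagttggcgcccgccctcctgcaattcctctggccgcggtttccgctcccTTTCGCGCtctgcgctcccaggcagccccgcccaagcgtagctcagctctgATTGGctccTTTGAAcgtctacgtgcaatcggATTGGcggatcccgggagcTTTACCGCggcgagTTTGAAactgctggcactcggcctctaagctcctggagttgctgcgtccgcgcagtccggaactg
Cenpf, a kinetochore protein, chr1:189688037-189688336, reverse strand: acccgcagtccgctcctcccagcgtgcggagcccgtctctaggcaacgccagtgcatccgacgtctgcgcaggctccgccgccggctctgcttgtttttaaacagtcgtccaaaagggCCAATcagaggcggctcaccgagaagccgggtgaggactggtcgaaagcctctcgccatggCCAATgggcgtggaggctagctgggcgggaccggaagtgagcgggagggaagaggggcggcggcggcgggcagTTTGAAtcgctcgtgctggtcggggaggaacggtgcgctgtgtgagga
Cenpa, the histone H3 variant of centromeres, chr5:30666636-30666935, forward strand: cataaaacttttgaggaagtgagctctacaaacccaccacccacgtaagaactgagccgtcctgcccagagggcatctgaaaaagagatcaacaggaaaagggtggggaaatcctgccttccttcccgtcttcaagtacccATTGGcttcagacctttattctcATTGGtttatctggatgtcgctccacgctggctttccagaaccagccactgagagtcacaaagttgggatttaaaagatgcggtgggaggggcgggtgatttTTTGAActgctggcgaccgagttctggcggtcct
Mcm6, a subunit of the replicative helicase, chr1:128359656-128359955, reverse strand: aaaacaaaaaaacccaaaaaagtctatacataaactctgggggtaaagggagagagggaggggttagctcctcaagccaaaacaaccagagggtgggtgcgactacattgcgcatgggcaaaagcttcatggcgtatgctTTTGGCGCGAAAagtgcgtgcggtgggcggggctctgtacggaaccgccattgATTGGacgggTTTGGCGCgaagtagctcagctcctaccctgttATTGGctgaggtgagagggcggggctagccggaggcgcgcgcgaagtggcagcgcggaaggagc

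TTTGAA was found in a window of 14 of the 20 G2/M genes with an entry (70.0%), of 3 of 16 G1/S and replication genes (18.8%) and of 0 of 3 CDK inhibitors. Among all tested genes with an entry it was found in 14.8%, and among all 27025 genes of the promoter table in 20.2%. The E2F motif had the opposite distribution in these groups, with 9 of 16 G1/S and replication genes (56.3%) and 1 of 20 G2/M genes (5.0%). Its share was 9.77% of tested genes (5.93% of the table). That 1 G2/M gene was Cdk1, whose window holds TTTGAA as well. CCAAT was common in both groups, in 17 of 20 G2/M genes (85%) and 11 of 16 G1/S and replication genes (68.8%), against 42.8% of tested genes (41.1% of the table). TTTGAA and CCAAT stood in the same window in 14 of 20 G2/M genes and in 6.14% of tested genes (7.97% of the table). With a site that 2 windows of 1 gene share counted once, the G2/M genes had 18 TTTGAA matches, whose first base had a median position of -16.5 from the start, and 13 of them began between 30 bases before and 49 after it, a range chosen after the positions were seen. In other cell cycle genes of the same roles, described at the end, the contrast in the E2F motif was weaker. It was found in 9 of 29 replication and S phase genes (31.0%), 7 of 32 G2/M genes (21.9%) and 6 of 11 G1 genes (54.5%). TTTGAA was found in 6 of 29 (20.7%), 23 of 32 (71.9%) and 4 of 11 (36.4%) of them. A match of letters is a description of the window and does not show binding.

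**Figure D1:**
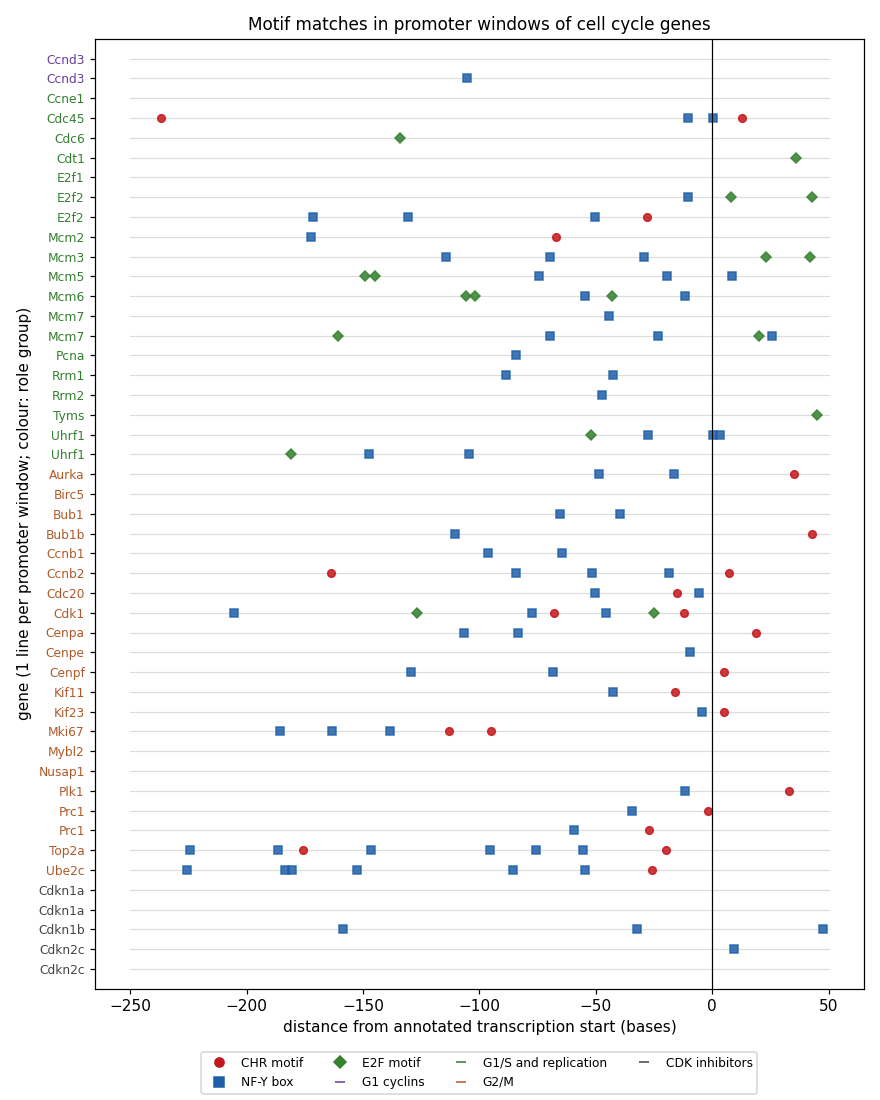
Motif matches in the promoter windows of the 40 cell cycle genes with a RefSeq entry; each line is 1 window (47 in all), the x axis is the distance of the match centre from the annotated transcription start in bases, and colours of the gene names give the role group. Red circles (TTTGAA) lie in windows of 14 of 20 G2/M genes, many of them close to the start, and green diamonds (TTTNNCGC) in windows of 9 of 16 G1/S and replication genes.

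The libraries differed in ways that the cell type labels do not give. Total counts ran from 16931099 to 20224847 per library. Symbols with a count above 0 numbered 15819, 15862 and 20772 in NK replicates 1 to 3. In ILC1 replicates 1 to 3 they numbered 21799, 21872 and 19402. Levels are given as CPM, the counts of a gene scaled to a common library size after TMM normalization. A library with 0 counts of a gene could still hold up to 0.144 to 0.174 CPM of it (3 counts), and this limit covers counting error only. Across the genes tested, log2 CPM of NK replicate 3 correlated with ILC1 replicates 1 and 2 at Pearson r = 0.977 and 0.971, and with NK replicates 1 and 2 at 0.880 and 0.880. The summed level of 6 fibroblast genes was 4.54, 8.47 and 666 CPM in NK replicates 1 to 3 and 784, 1174 and 39.0 CPM in ILC1 replicates 1 to 3, and Pdgfra was at 0 in NK replicate 1. For 4 endothelial genes the sums were 257, 243 and 183 CPM in NK and 206, 185 and 168 CPM in ILC1 libraries. Their median log2(CPM + 0.1) was -2.16, -3.32 and 1.01 in NK and 2.64, 2.49 and 0.29 in ILC1 libraries. The sum of 8 macrophage genes was 9795 CPM in ILC1 replicate 3 and 85.6 to 255 CPM in the other 5 libraries, with Mrc1 at 0 in NK replicate 2. The same library was high in T cell genes (8 genes, 208 CPM against 55.7 to 76.0 in the others) and in dendritic cell genes (6 genes, 2761 against 497 to 881 CPM), of which H2-Ab1, a class II gene that macrophages express too, made up 2171 CPM. The 8 epithelial carcinoma genes summed to 16.7 to 33.2 CPM in NK and 106 to 382 CPM in ILC1 libraries. Most of that was Cdh1, E-cadherin, at 12.2 to 23.3 and 97.5 to 377 CPM, while Epcam was at 1.34 to 4.35 CPM and Krt20 and Cdx2 were at 0 in all 6 libraries. Markers of the 2 cell types followed the labels in their sums. The sum of 7 NK genes was 4481 to 7288 CPM in NK and 1429 to 2256 CPM in ILC1 libraries, and that of 6 ILC1 genes was 125 to 146 CPM and 399 to 661 CPM. Of the 7 NK genes Zeb2 went the other way, at 45.8, 35.7 and 66.9 CPM in NK and 48.5, 48.0 and 211 CPM in ILC1 libraries. A list of 5 genes that both cell types express held Ncr1, Klrb1c, Tbx21, Klrk1 and Nkg7. Its sum was 4341, 4610 and 2956 CPM in NK replicates 1 to 3 and 2157, 2017 and 1951 CPM in ILC1 replicates 1 to 3.

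In these libraries the G2/M genes tended to be higher in ILC1s than in NK cells, the D-type cyclins Ccnd2 and Ccnd3 lower, and the replication genes slightly higher, but no single gene of the 50 passed the test. Of the 26 G2/M genes, 26 had a positive log2 fold change (ILC1 minus NK), with a median of 1.2, and of the 19 G1/S and replication genes 18 did, with a median of 0.68. Ccnd2 and Ccnd3 had negative fold changes (median -0.68), and the 3 CDK inhibitors went different ways, with a median of 0.11. Over all 50 genes 46 fold changes were positive, where 56.0% of all tested genes were, and the median of all tested genes was 0.08. Fewer dividing cells in a sort and less RNA of these genes per cell cannot be told apart in bulk RNA.

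With edgeR's quasi-likelihood test and Benjamini-Hochberg adjustment over 14475 genes, 0 of the 50 genes were called higher and 0 lower at an adjusted p under 0.05, where 0.0829% of all tested genes were called (0.0760% higher and 0.00691% lower). Their adjusted p-values in edgeR ran from 0.173 to 0.994. At an unadjusted p under 0.05, 8 genes were higher (6.95% of all tested genes were) and 2 were lower (8.82%). DESeq2 called Tyms, E2f1, E2f2, Ccnb2 and Cdkn1a higher, 5 of 50 against 2.94% of all tested genes, and Ccnd2 and Cdkn1b lower, 2 of 50 against 4.03%. Run on all symbols instead, DESeq2 called 5 of the 50 higher and 0 lower. Of all 55291 symbols it called 396 higher (0.716%) and 412 lower (0.745%). These 2 shares are low because 29106 symbols were at 0 in all libraries and only 14336 had an adjusted p. Limma-voom called 0 of 50, with 0.124% of all tested genes called. The 3 ILC1 libraries lay above the 3 NK libraries for E2f1, E2f2, Ccnb2 and Cdkn1a, 4 of 50 genes where 12.5% of all tested genes did so, and below them for Ccnd2 and Cdkn1b, 2 of 50 where 13.3% did. On GRCm38, in the GENCODE M21 annotation, these protein-coding genes lie at chr2:154559407-154569892 (E2f1), chr4:136172394-136196057 (E2f2), chr9:70407692-70421547 (Ccnb2), chr17:29090976-29100727 (Cdkn1a), chr6:127125162-127152193 (Ccnd2) and chr6:134920401-134925513 (Cdkn1b).

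**Figure D2:**
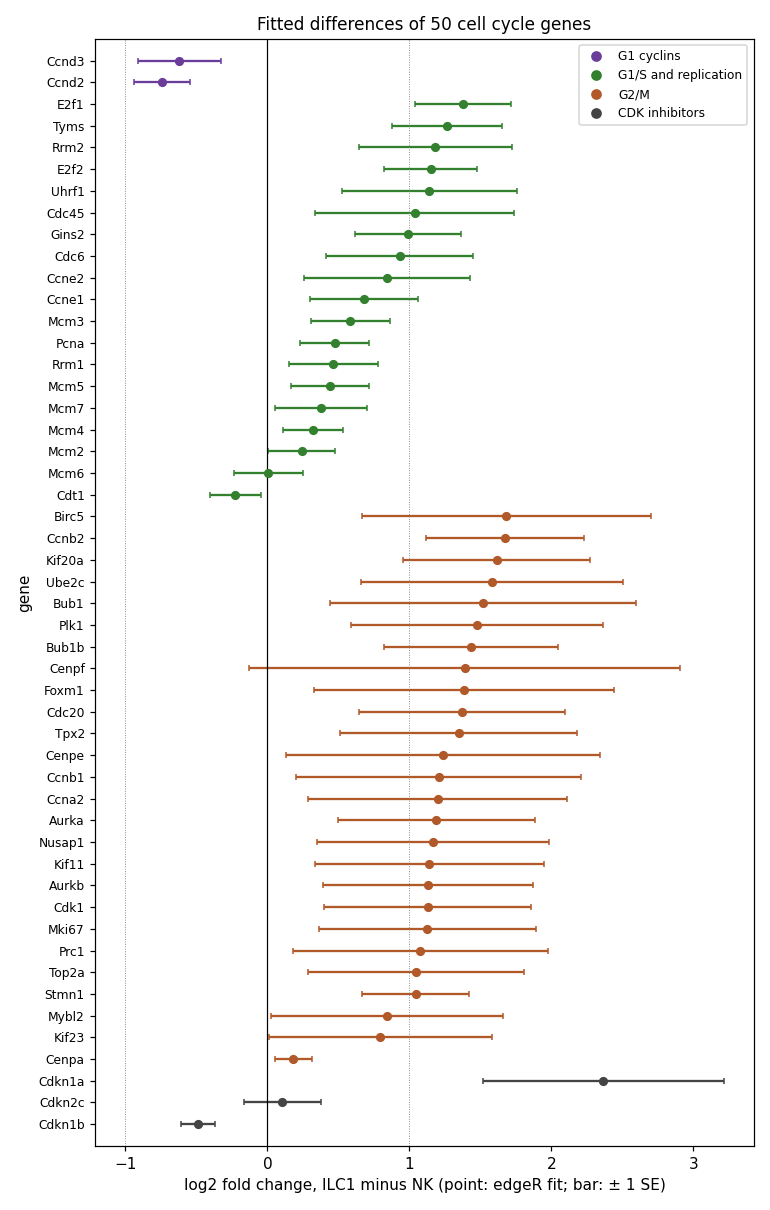
Fitted log2 fold change (x axis, ILC1 minus NK, edgeR) of the 50 cell cycle genes (y axis) with bars of 1 SE, coloured by role group, from 3 libraries per cell type. All 26 G2/M points lie above 0 with wide bars (SE 0.13 to 1.51), and Ccnd2, Ccnd3 and Cdkn1b lie below 0.

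The D-type cyclins start G1 by activating CDK4 and CDK6. Ccnd2, cyclin D2, was at 328, 364 and 253 CPM in NK replicates 1 to 3 and at 216, 191 and 158 CPM in ILC1 replicates 1 to 3. The 2 cell types did not overlap, and the ILC1 mean of 188 ± 29.1 CPM stood below the NK mean of 315 ± 56.8 CPM (SD, n = 3 each). The NK mean was 1.67-fold the ILC1 mean, and the log2 fold change was -0.74 ± 0.20 (SE; edgeR adjusted p = 0.196, DESeq2 adjusted p = 0.0127). Ccnd3, cyclin D3, was at 282, 354 and 165 CPM in NK and at 164, 158 and 198 CPM in ILC1 libraries. Here NK replicate 3 lay within the range of the ILC1 libraries, and the log2 fold change of -0.62 ± 0.29 had an edgeR adjusted p of 0.364. With the 3 libraries of high fibroblast markers alone, the log2 fold change was -0.35 for Ccnd2 (edgeR adjusted p = 0.216) and -0.07 for Ccnd3. Ccnd1, cyclin D1, is a gene outside the 50, and its level was 2.85, 6.73 and 113 CPM in NK and 144, 174 and 55.4 CPM in ILC1 libraries. Its log2 fold change was 1.61 ± 1.38 (edgeR adjusted p = 0.612), so its sign was opposite to that of Ccnd2 and Ccnd3. It was named after its values were seen, and the part of fibroblast RNA in it was not tested.

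**Figure D3:**
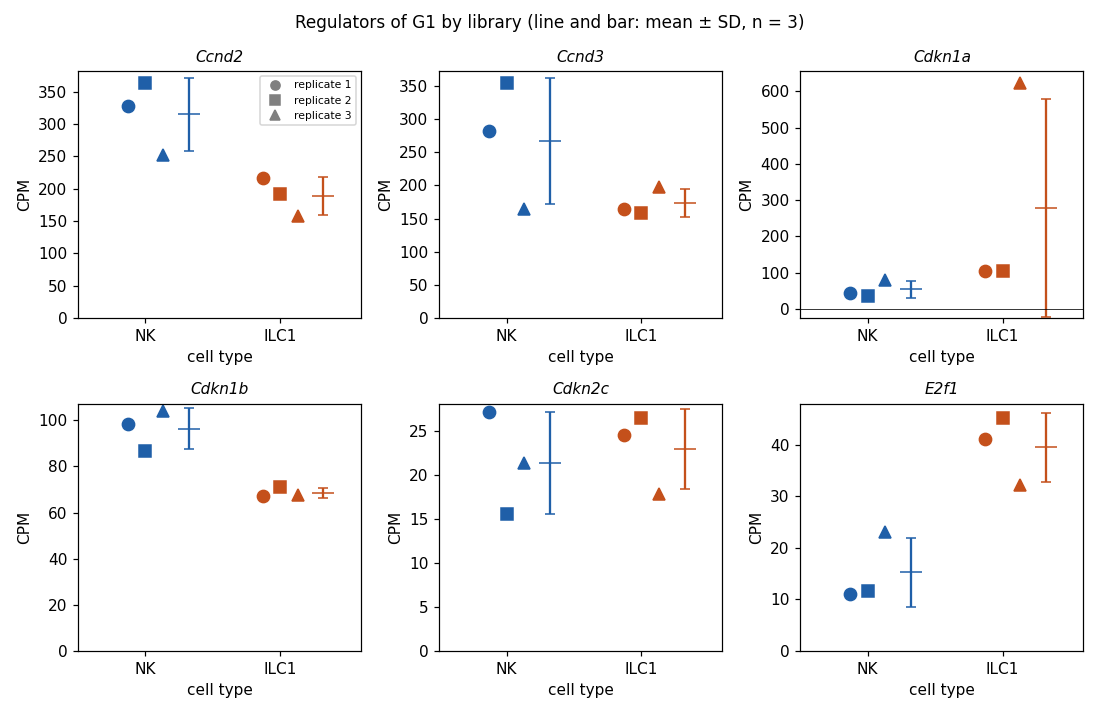
CPM (y axis) of Ccnd2, Ccnd3, Cdkn1a, Cdkn1b, Cdkn2c and E2f1 in each library by cell type (x axis); symbols are replicates, and the line with its bar is the mean ± SD over 3 libraries. Ccnd2 and Cdkn1b are lower in every ILC1 library than in every NK library, E2f1 is higher, and the wide bar of Cdkn1a comes with 624 CPM in ILC1 replicate 3.

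Among the G1/S genes the 2 transcription factors E2f1 and E2f2 showed the clearest separation. E2f1 was at 11, 11.7 and 23.0 CPM in NK replicates 1 to 3 and at 41.1, 45.2 and 32.2 CPM in ILC1 replicates 1 to 3. Every ILC1 library lay above every NK library, the ratio of means was 2.59, and the log2 fold change was 1.37 ± 0.34 (edgeR adjusted p = 0.176, DESeq2 adjusted p = 0.00578). E2f2 was at 8.19, 7.19 and 14.4 CPM in NK and at 19.3, 20.3 and 26.4 CPM in ILC1 libraries. Its order differed from that of E2f1 in that ILC1 replicate 3 was the highest library, and its log2 fold change was 1.15 ± 0.33 (edgeR adjusted p = 0.215, DESeq2 adjusted p = 0.0345). Without NK replicate 3, edgeR called 2 of the 50 genes higher (1.67% of all genes in that fit) and 0 lower (1.33%). These were Ccnb2 and E2f1, whose log2 fold change was then 1.81 (adjusted p = 0.0353). With the other 5 libraries left out in turn the edgeR adjusted p of E2f1 ran from 0.208 to 0.521.

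Genes of nucleotide supply came next. Tyms, thymidylate synthase, was at 11.8, 11.1 and 19.0 CPM in NK and at 37.6, 44.4 and 18.7 CPM in ILC1 libraries. ILC1 replicate 3 lay at the level of NK replicate 3, so the cell types overlapped, and the log2 fold change was 1.26 ± 0.39 (edgeR adjusted p = 0.243, DESeq2 adjusted p = 0.0381). Rrm2, the small subunit of ribonucleotide reductase, was at 17.4, 16.1 and 31.8 CPM in NK and at 65.8, 63.5 and 19.0 CPM in ILC1 libraries, with ILC1 replicate 3 again near the NK libraries. Rrm1, the large subunit, was at 85.5, 82.4 and 107 CPM in NK and at 142, 165 and 72.7 CPM in ILC1 libraries, so its ILC1 replicate 3 was the lowest of the 6. The log2 fold changes were 1.18 ± 0.54 for Rrm2 and 0.46 ± 0.31 for Rrm1.

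The helicase subunits Mcm2 to Mcm7 unwind DNA at the fork, where the sliding clamp Pcna holds the polymerase. Per kb of exon, Pcna was the highest of the 50 genes in both cell types, at 87.8 CPM per kb in NK and 122 in ILC1, and Mcm6 was next in NK cells at 52.9. Pcna was at 186, 193 and 253 CPM in NK and at 339, 331 and 208 CPM in ILC1 libraries, a log2 fold change of 0.47 ± 0.24 (edgeR adjusted p = 0.393). Mcm6 was at 268, 255 and 217 CPM in NK and at 281, 295 and 168 CPM in ILC1 libraries. Its means of 247 ± 26.6 and 248 ± 69.8 CPM (SD, n = 3 each) were nearly equal, and its log2 fold change of 0.01 ± 0.24 changed sign with the processing. For Mcm5 the levels were 118, 126 and 130 CPM in NK and 186, 216 and 104 CPM in ILC1 libraries. For Mcm2 they were 139, 129 and 124 CPM in NK and 174, 185 and 104 CPM in ILC1 libraries. Mcm3 stood at 104, 89.6 and 123 CPM in NK and at 180, 193 and 101 CPM in ILC1 libraries. In each of these 4 helicase genes ILC1 replicates 1 and 2 were the 2 highest libraries and ILC1 replicate 3 lay within or below the NK range, with log2 fold changes from 0.01 (Mcm6) to 0.58 ± 0.28 (Mcm3). Mcm4 (0.32 ± 0.21) and Mcm7 (0.38 ± 0.32) had the same order at the top.

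The next genes load and start replication forks. Gins2, a subunit of the GINS complex of the helicase, was at 6.09, 9.19 and 10.9 CPM in NK and at 18.0, 23.3 and 10.7 CPM in ILC1 libraries, and its log2 fold change was 0.99 ± 0.38 (edgeR adjusted p = 0.298). Exons of Gse1 on the opposite strand overlap 67.3% of its exon bases, and the strand setting of the counting is not given, so reads of the 2 genes cannot be told apart there. Cdc45, another part of the helicase, was at 7.94, 10.9 and 30.3 CPM in NK and at 41.3, 47.2 and 12.4 CPM in ILC1 libraries. Cdc6, which loads the helicase, was at 8.64, 7.86 and 13.6 CPM in NK and at 24.0, 26.2 and 7.36 CPM in ILC1 libraries. In both genes ILC1 replicate 3 lay inside or below the NK range. Cdt1, the partner of Cdc6, was the G1/S gene with a negative fold change: it was at 55.4, 56.6 and 53.8 CPM in NK and at 54.3, 51.5 and 36.0 CPM in ILC1 libraries (log2 fold change -0.23 ± 0.18, edgeR adjusted p = 0.582).

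Cyclin E1 (Ccne1) and cyclin E2 (Ccne2) activate CDK2 at the G1/S transition and were at 4.80 to 6.44 and 2.72 to 6.53 CPM in NK. Their ILC1 libraries ran from 5.10 to 10.4 CPM and from 3.36 to 9.99 CPM, so both overlapped between cell types. Uhrf1, which carries DNA methylation through replication, was at 28.5, 41.1 and 83.7 CPM in NK and at 136, 159 and 42.3 CPM in ILC1 libraries (log2 fold change 1.14 ± 0.62, edgeR adjusted p = 0.424). It had the same pattern as Cdc45, with NK replicate 3 between the other NK libraries and ILC1 replicates 1 and 2.

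**Figure D4:**
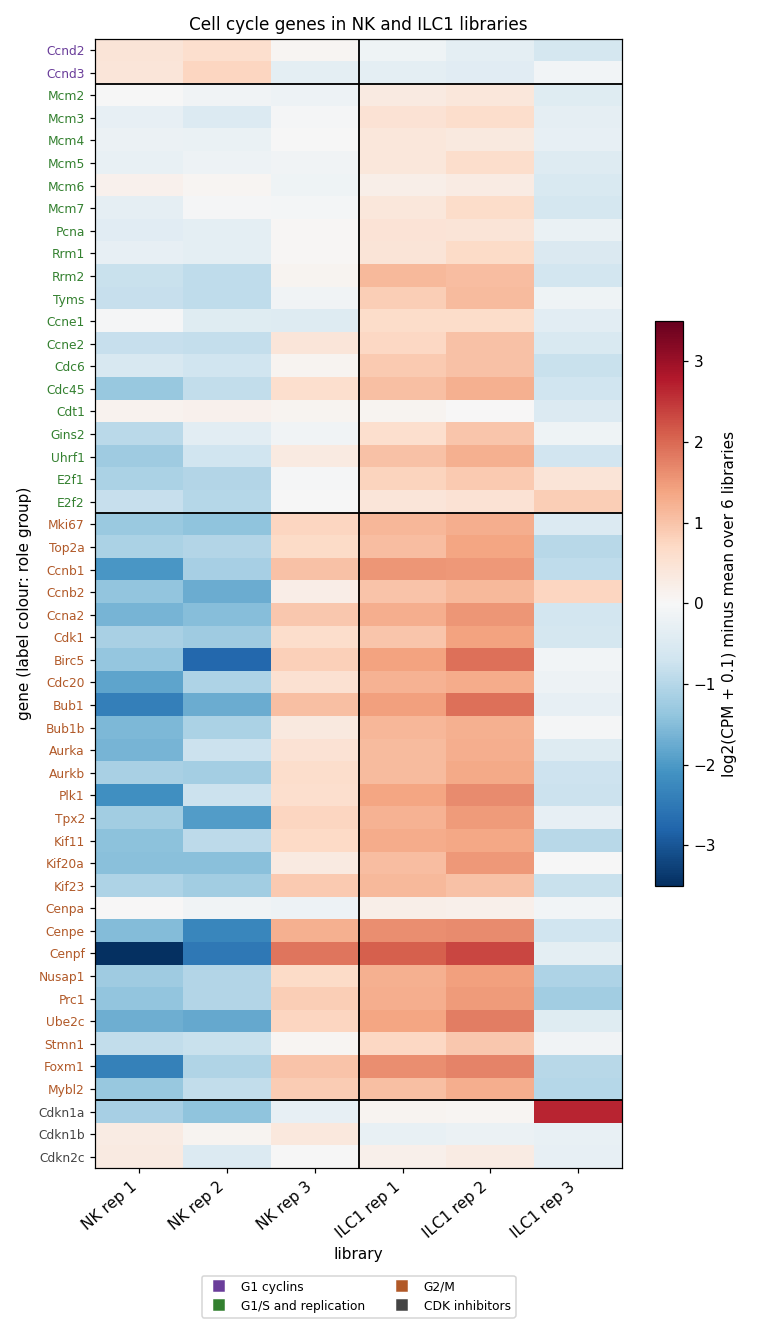
Level of the 50 cell cycle genes (y axis, by role group) in the 6 libraries (x axis), as log2(CPM + 0.1) minus the mean over the 6 libraries of each gene. The G2/M rows are red in the third NK column and the first 2 ILC1 columns and mostly blue elsewhere, Cenpa is near 0 throughout, and Cdkn1a stands out in ILC1 replicate 3.

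The G2/M genes varied within each cell type. For 24 of the 26, all but Ccnb2 and Cenpa, the 3 highest libraries were NK replicate 3 and ILC1 replicates 1 and 2, the same 3 that had high fibroblast markers. This order held for 12 of the 19 G1/S and replication genes, for neither Ccnd2 nor Ccnd3, for 0 of the 3 CDK inhibitors and for 21.5% of all tested genes, and it was picked out after the values were seen. Mki67, the antigen Ki-67 of cycling cells, was at 32.9, 30.2 and 135 CPM in NK and at 181, 194 and 57.8 CPM in ILC1 libraries. NK replicate 3 was at 4.28 times the mean of the other NK libraries, and ILC1 replicate 3 was the lowest ILC1 library, above both NK replicates 1 and 2. The log2 fold change of Mki67 was 1.13 ± 0.76 (edgeR adjusted p = 0.517). Top2a, the topoisomerase that untangles chromosomes, was at 48.3, 51.0 and 165 CPM in NK and at 221, 271 and 52.8 CPM in ILC1 libraries (log2 fold change 1.04 ± 0.76, edgeR adjusted p = 0.548).

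Cyclins and kinases of mitosis repeated this order with one exception. Ccna2, cyclin A2, was at 8.19, 8.99 and 49.7 CPM in NK and at 62.1, 75.0 and 16.4 CPM in ILC1 libraries. Ccnb1, cyclin B1, was at 2.65, 4.93 and 22.9 CPM in NK and at 32.4, 32 and 5.91 CPM in ILC1 libraries. Cdk1, their kinase partner, was at 9.34, 8.63 and 31.6 CPM in NK and at 40.2, 55.0 and 13.3 CPM in ILC1 libraries. In all 3 genes ILC1 replicate 3 stood above NK replicates 1 and 2 and below NK replicate 3. Ccnb2, cyclin B2, was the exception: it was at 5.64, 4.42 and 17.5 CPM in NK and at 29.7, 33.1 and 25.4 CPM in ILC1 libraries. All 3 ILC1 libraries lay above all NK libraries, with means of 29.4 ± 3.86 and 9.20 ± 7.25 CPM (SD, n = 3 each). The ratio of means was 3.19 and the log2 fold change 1.67 ± 0.56 (edgeR adjusted p = 0.268, DESeq2 adjusted p = 0.0397). Without NK replicate 3 it was 2.55 (edgeR adjusted p = 0.0313), and with the other 5 libraries left out in turn it ran from 1.35 to 1.74 with adjusted p from 0.343 to 0.617.

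The other mitotic kinases were low in NK replicates 1 and 2. Aurora kinase A (Aurka) was at 2.55, 4.72 and 11.4 CPM in NK and at 17.4, 19.5 and 5.85 CPM in ILC1 libraries. Aurora kinase B (Aurkb) was at 5.54, 5.29 and 18.9 CPM and at 26.8, 31.1 and 7.36 CPM. Plk1, the polo-like kinase that acts throughout mitosis, was at 1.50, 4.11 and 10.4 CPM in NK and at 18.3, 22.2 and 4.11 CPM in ILC1 libraries. For Plk1, ILC1 replicate 3 was level with NK replicate 2. Birc5, survivin, which works with Aurora B, had the largest fitted difference of the G2/M genes, 1.68 ± 1.02 on the log2 scale, with 4.69, 1.75 and 21.9 CPM in NK and 32.8, 46.9 and 11.5 CPM in ILC1 libraries. Its libraries spread widely within each cell type, with an SD of 10.9 CPM in NK and 17.8 CPM in ILC1 (n = 3 each). The edgeR adjusted p of Birc5 was 0.468.

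Genes of the spindle checkpoint, which delays anaphase until chromosomes are attached, had this order as well. Bub1b was at 6.89, 9.71 and 26.4 CPM in NK and at 46.7, 49.2 and 20.2 CPM in ILC1 libraries, with a log2 fold change of 1.43 ± 0.61 (edgeR adjusted p = 0.334). Bub1 was at 1.85, 2.98 and 21.4 CPM in NK and at 28.0, 38.8 and 8.35 CPM in ILC1 libraries. Cdc20, which switches on the anaphase-promoting complex, was at 5.84, 10.1 and 31.0 CPM in NK and at 49.9, 52.7 and 18.8 CPM in ILC1 libraries. Ube2c, the ubiquitin-conjugating enzyme of that complex, was at 4.94, 4.67 and 27.7 CPM in NK and at 42.6, 56.9 and 12.2 CPM in ILC1 libraries, and exons of Tnnc2 overlap 22.8% of its exon bases. In each of these 4 genes ILC1 replicate 3 lay between NK replicates 1 and 2 on one side and NK replicate 3 on the other.

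Motor and spindle proteins followed. Kif20a, a kinesin of cytokinesis, was at 4.0, 4.06 and 14.1 CPM in NK and at 24.2, 32.5 and 11.2 CPM in ILC1 libraries, with a log2 fold change of 1.62 ± 0.66 (edgeR adjusted p = 0.315). Exons of Cdc23 overlap 29.3% of its exon bases. Kif11, which pushes the spindle poles apart, ran from 8.09 to 35.4 CPM in NK and from 11.2 to 55.8 CPM in ILC1 libraries, and Kif23, of the central spindle, from 6.57 to 29.2 and from 8.93 to 34.2 CPM. Tpx2, a spindle assembly factor, ran from 6.32 to 41.7 CPM in NK and from 20.3 to 70.7 CPM in ILC1 libraries. Nusap1 (6.44 to 24.3 against 7.24 to 41.8 CPM) and Prc1 (6.09 to 29.5 against 6.84 to 45.5 CPM), which bind spindle microtubules, overlapped in the same way. Stmn1, stathmin, which destabilises microtubules, was at 38.5, 40.9 and 74.0 CPM in NK and at 116, 135 and 64.6 CPM in ILC1 libraries. Its spread was narrower than that of the other genes just named, and its log2 fold change was 1.04 ± 0.38 (edgeR adjusted p = 0.284).

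The centromere genes held the widest and the narrowest variation of the G2/M genes. Cenpf was at 0.599, 1.28 and 28.3 CPM in NK (the first 2 from 12 and 25 counts) and at 33.4, 39.6 and 6.09 CPM in ILC1 libraries. NK replicate 3 was at 30.1 times the mean of the other NK libraries, the most of the 50 genes, and the log2 fold change between cell types was 1.39 ± 1.51 (edgeR adjusted p = 0.691). Cenpe, a kinesin of kinetochores, was at 3.95, 2.26 and 27.3 CPM in NK and at 35.7, 36.3 and 7.01 CPM in ILC1 libraries. Cenpa was at 75.5, 69.2 and 66.6 CPM in NK and at 85.6, 84.0 and 70.4 CPM in ILC1 libraries, so its 6 libraries lay between 66.6 and 85.6 CPM. Its window, printed above, holds TTTGAA just after the start and CCAAT boxes on the opposite strand. Among the G2/M genes with an entry, the median log2 ratio of NK replicate 3 to the other NK libraries was 1.85 for the 14 with TTTGAA and 2.65 for the 6 without it. Among the G2/M genes outside the 50, the order was the other way, with 2.0 for the 23 with TTTGAA and 1.40 for the 9 without it.

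The 2 transcription factors of the group, Foxm1 and Mybl2, had the same order. Foxm1 was at 2.85, 7.34 and 30.5 CPM in NK and at 47.2, 51.3 and 7.77 CPM in ILC1 libraries. Mybl2, which encodes B-MYB, was at 4.59, 6.37 and 21.8 CPM in NK and at 24.5, 28.4 and 5.80 CPM in ILC1 libraries. In both, ILC1 replicate 3 was close to NK replicate 2, and neither the Foxm1 (1.39 ± 1.06) nor the Mybl2 (0.84 ± 0.82) log2 fold change passed edgeR's test (adjusted p = 0.567 and 0.654).

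Sums over the role groups show the same pattern. The 26 G2/M genes summed to 309, 323 and 1013 CPM in NK replicates 1 to 3 and to 1419, 1630 and 487 CPM in ILC1 replicates 1 to 3. The means were 548 ± 403 CPM in NK and 1179 ± 608 CPM in ILC1 libraries (SD, n = 3 each), and the cell types overlapped. The 19 G1/S and replication genes summed to 1256, 1259 and 1465 CPM in NK and to 2056, 2206 and 1137 CPM in ILC1 libraries, with ILC1 replicate 3 the lowest library. The ratio of the G2/M sum to the G1/S sum was 0.246 and 0.256 in NK replicates 1 and 2, 0.429 in ILC1 replicate 3, 0.691 in NK replicate 3, and 0.690 and 0.739 in ILC1 replicates 1 and 2. Fibroblast gene sums were high in the same 3 libraries and the macrophage sum was high in ILC1 replicate 3, as given above, and the part of these other cells in the cell cycle sums was not tested.

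**Figure D5:**
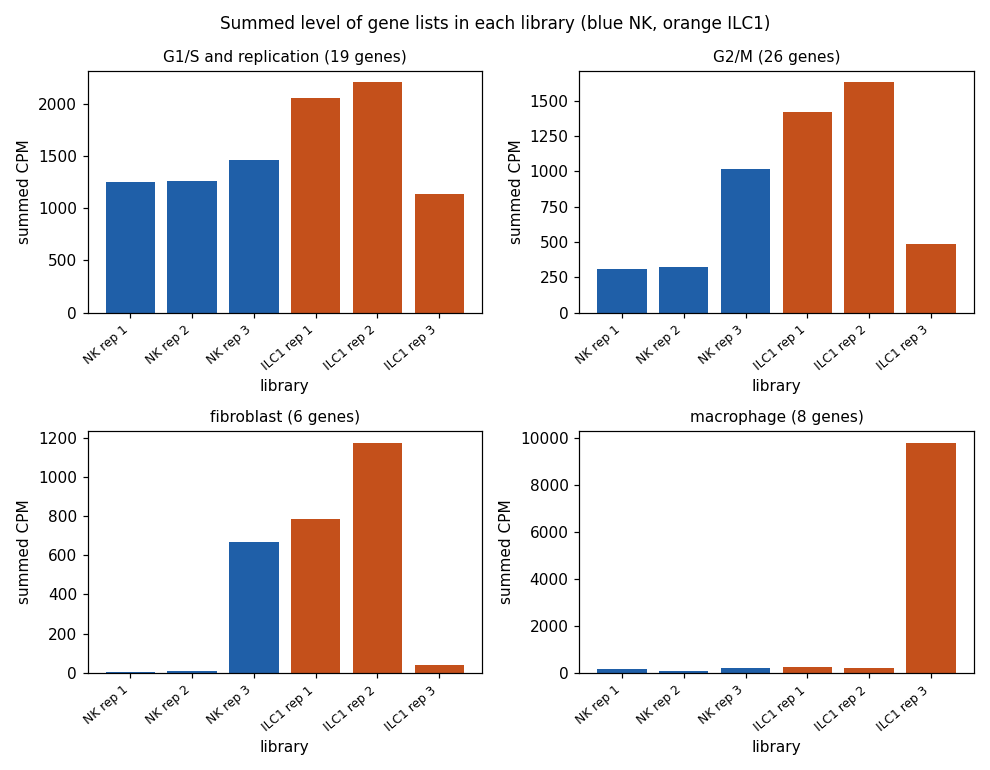
Summed CPM (y axis, separate scales from 0) of the G1/S and replication genes, the G2/M genes, 6 fibroblast markers and 8 macrophage markers in each library (x axis), with NK in blue and ILC1 in orange. The G2/M bars of NK replicate 3 (1013) and ILC1 replicates 1 and 2 (1419 and 1630) are the highest, as are their fibroblast bars, and the macrophage bar of ILC1 replicate 3 reaches 9795.

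Cell types were also compared between libraries that were all high or all lower in fibroblast markers, though these levels were not equal. The fibroblast sum was 666 CPM in NK replicate 3 against 784 and 1174 CPM in ILC1 replicates 1 and 2. Among the lower libraries, NK replicates 1 and 2 had sums of 4.54 and 8.47 CPM, while ILC1 replicate 3 stood well above both at 39.0 CPM. These libraries were thus not matched on fibroblast markers. The part of fibroblast RNA in the ratios below was not tested. When the mean of ILC1 replicates 1 and 2 was set against NK replicate 3, all with high fibroblast markers, the median log2 ratio was 0.63 over the G2/M genes (26 of 26 above 0) and 0.60 over the G1/S and replication genes (18 of 19). Over all tested genes it was 0.06, with 56.2% above 0. When NK replicate 3 was set against the mean of NK replicates 1 and 2, the medians were 1.96 for G2/M (25 of 26 above 0) and 0.41 for G1/S and replication (15 of 19), against 0.05 over all tested genes, with 53.4% above 0. For the mean of ILC1 replicates 1 and 2 against ILC1 replicate 3, the medians were 1.98 for G2/M (26 of 26 above 0) and 0.96 for G1/S and replication (18 of 19), against 0.10, with 56.0% above 0. For G2/M the medians within each cell type were thus above the 0.63 between cell types among libraries of high fibroblast markers, a difference that was not tested. For G1/S and replication the median within NK (0.41) was below the 0.60 between cell types, and that within ILC1 (0.96) was above it. For ILC1 replicate 3 against NK replicates 1 and 2, all with lower fibroblast markers but with high macrophage genes in ILC1 replicate 3, the medians were 0.69 for G2/M (24 of 26 above 0) and 0.06 for G1/S and replication (10 of 19), against 0.01, with 50.5% above 0. With the sets of libraries as a term in edgeR's fit, the median log2 fold change was 0.63 for G2/M and 0.60 for G1/S and replication. That fit called 0 of the 50 genes higher (0.111% of all tested genes) and 0 lower (0.117%), with 24 of the 50 higher (3.63% of all tested genes) and 1 lower (4.97%) at an unadjusted p under 0.05.

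With NK replicate 3 and ILC1 replicates 1 and 2 alone, a fit in which the lone NK library is assumed to vary like the 2 ILC1 libraries, edgeR called 28 of the 50 genes higher in ILC1 (6.13% of all genes in that fit) and 1 lower (6.00%). The 28 were 11 G1/S and replication genes and 17 G2/M genes, and Cdkn1b was lower. The log2 fold changes of this fit included 0.87 for E2f1 (adjusted p = 0.000118) and 0.80 for Ccnb2 (adjusted p = 0.000996). Limma-voom with estimated library weights called 36 of 50 higher (7.79% of all tested genes) and 3 lower (7.50%), with weights of 3.19 and 3.58 for ILC1 replicates 1 and 2 and 0.203 and 0.441 for ILC1 replicate 3 and NK replicate 3. In the first of these fits the spread comes from ILC1 replicates 1 and 2 alone, and the second gives them the highest weights. These 2 libraries had the highest correlation of all pairs (r = 0.989). At an unadjusted p under 0.05, edgeR had 31 of 50 higher without NK replicate 3 (16.2% of all genes in that fit) and 19 without ILC1 replicate 3 (4.68%). Without NK replicates 1 or 2 it had 1 and 2 higher (2.72% and 3.29%), and without ILC1 replicates 1 or 2 it had 4 and 3 (6.82% and 5.39%). Lower at that p were 3 of 50 without NK replicate 3 (10.4%) and 2 of 50 without each other library (5.73% and 5.67% for NK replicates 1 and 2, and 6.68%, 4.65% and 9.54% for ILC1 replicates 1 to 3).

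The CDK inhibitors differed from one another. Cdkn1a, p21, was at 44.1, 36.9 and 80.6 CPM in NK and at 104, 104 and 624 CPM in ILC1 libraries. All ILC1 libraries lay above all NK libraries, but ILC1 replicate 3 was far above the other ILC1 libraries, and the means were 277 ± 300.3 and 53.9 ± 23.4 CPM (SD, n = 3 each). The log2 fold change was 2.36 ± 0.85 (edgeR adjusted p = 0.286, DESeq2 adjusted p = 0.0130) and 0.93 without ILC1 replicate 3 (edgeR adjusted p = 0.359). ILC1 replicate 3 also held the high macrophage, T cell and dendritic cell genes, and their part in the Cdkn1a level was not tested. Cdkn1b, p27, was at 98.5, 86.5 and 104 CPM in NK and at 67.3, 71.0 and 67.5 CPM in ILC1 libraries. The cell types did not overlap, the means were 96.3 ± 8.98 and 68.6 ± 2.09 CPM (SD, n = 3 each), and the NK mean was 1.40-fold the ILC1 mean. Its log2 fold change was -0.49 ± 0.12 (edgeR adjusted p = 0.173, DESeq2 adjusted p = 0.00946), and it ran from -0.63 to -0.42 over all alternatives. Among the 3 libraries of high fibroblast markers, with 1 NK library, it was -0.63. With library sets as a term it was -0.59, a value that rests on the same 3 libraries. With each library left out the edgeR adjusted p ran from 0.127 to 0.525. Cdkn2c, p18, was at 27.1, 15.5 and 21.3 CPM in NK and at 24.5, 26.5 and 17.8 CPM in ILC1 libraries, and its log2 fold change was 0.11 ± 0.27 (edgeR adjusted p = 0.859).

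Other cell cycle genes were taken from a list of 97 genes of the same 4 roles, of which 95 were tested (Cdkn2a and Cdkn2b were not). By edgeR 0 of 95 were called in either direction. At an unadjusted p under 0.05, 9 were higher (6.95% of all tested genes were) and 2 lower (8.82%). All ILC1 libraries lay above all NK libraries for 9 of 95, where 12.5% of all tested genes did so. They lay below them for 2 of 95, where 13.3% did. DESeq2 called 3 of 95 higher, Cdk2, Cdk6 and Tk1, a share near the 2.94% of all tested genes, and 0 lower (4.03%). Positive fold changes were found for 81 of the 95, and medians were 0.40 for 15 G1 genes, 0.60 for 38 replication and S phase genes, 1.06 for 40 G2/M genes and -1.45 for the 2 tested CDK inhibitors. Cdk2, the partner of cyclins E and A, was at 11.4, 16 and 21.8 CPM in NK and at 32.7, 36.7 and 26.9 CPM in ILC1 libraries, without overlap (log2 fold change 0.97 ± 0.28, edgeR adjusted p = 0.215). Cdk6, the partner of the D-type cyclins, was at 93.4, 87.1 and 137 CPM in NK and at 212, 193 and 141 CPM in ILC1 libraries, again without overlap (0.78 ± 0.24, edgeR adjusted p = 0.248). Ccnd2, which binds Cdk6, had the opposite order of cell types.

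Tk1, thymidine kinase, was at 18.3, 11.3 and 27.2 CPM in NK and at 51.6, 58.2 and 27.9 CPM in ILC1 libraries, narrowly without overlap (log2 fold change 1.28 ± 0.41, edgeR adjusted p = 0.259). Gmnn, geminin, which blocks Cdt1, was at 12.1, 12 and 14.9 CPM in NK and at 19.2, 25.8 and 18.5 CPM in ILC1 libraries, without overlap (0.70 ± 0.22, edgeR adjusted p = 0.248). Among G2/M genes, Spc24 of the kinetochore was at 2.60, 3.85 and 7.78 CPM in NK and at 15.3, 20.9 and 7.71 CPM in ILC1 libraries. Cdca3, which promotes degradation of Wee1 before mitosis, was at 4.89, 3.49 and 15.2 CPM in NK and at 23.8, 26.1 and 16.7 CPM in ILC1 libraries and did not overlap, as Ccnb2 did not. The 2 tested inhibitors were lower in every ILC1 library than in every NK library. Cdkn1c, p57, was at 2.30, 2.21 and 0.961 CPM in NK and at 0.223, 0.487 and 0.348 CPM in ILC1 libraries, from 4 to 10 counts each in ILC1 (log2 fold change -2.34 ± 0.67, edgeR adjusted p = 0.215). Cdkn2d, p19, was at 46.3, 60.1 and 35.4 CPM in NK and at 28.4, 32.4 and 35.1 CPM in ILC1 libraries (-0.56 ± 0.22, edgeR adjusted p = 0.307).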

How the data were processed

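The authors deposited raw counts per gene symbol for 6 libraries of poly(A)-selected RNA, read as single ends of 50 bases. Per the submitters' processing notes, the tools were HISAT2 2.1.0 and featureCounts 2.0.1 with GRCm38. Which annotation release and strand setting were used, and how multiply mapped reads were handled, the sources used here do not give. Counts include PCR copies, since no molecular identifiers are described. The cell type label gave the groups, and sample titles gave the columns.

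Levels in CPM use effective library sizes (TMM) of the deposited counts. Cell types were compared with edgeR 4.0.16 in R 4.3.3 (filterByExpr, TMM, robust quasi-likelihood fit with cell type as the term, Benjamini-Hochberg adjustment over 14475 genes, threshold 0.05). Fold changes are ILC1 minus NK on the log2 scale with a prior count of 0.125, and SEs come from the same fit. An exact two-sided permutation test of 3 against 3 libraries cannot go below p = 0.1, and the model across genes was used instead. Log2 ratios between libraries had 0.1 CPM added. The scripts were tested on simulated data. Alternatives used DESeq2 1.42.0 and limma 3.58.1, other normalizations and filters, library sets, a replicate block and each library left out. Every pair of libraries differed by more than counting error.

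The members, the role groups, the lists and the alternatives were chosen with earlier results of these data known. The naming rule took the 2 G1 cyclins and all CDK inhibitors, the 5 members with the highest mean CPM and the 4 with the smallest p in each of the G1/S and G2/M groups, every member without overlap between cell types, and the 2 other genes with the smallest p in each role. Other genes described singly were chosen after their values were seen. Promoter windows come from RefSeq on GRCm38.p6, and gene positions, exon lengths and exon overlaps from GENCODE M21 on GRCm38. Positions are 1-based.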

Additional observations from a re-analysis of the deposited data

How the results depend on the processing

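The 26 G2/M genes kept positive fold changes under all 18 alternatives, and at least 17 of the 19 G1/S and replication genes did. Counts of called cell cycle genes depended on the spread assumed. The 0 higher and 0 lower of edgeR became 5 and 2 with DESeq2, 36 and 3 with limma-voom and library weights, and 28 and 1 with NK replicate 3 and ILC1 replicates 1 and 2 alone. DESeq2 on all symbols, an alternative chosen after seeing the data, gave 5 higher and 0 lower, where 0.716% and 0.745% of all symbols were called. Only 14336 of the 55291 symbols had an adjusted p in that run. With each library left out in turn, 0 to 2 were called higher (E2f1 and Ccnb2 without NK replicate 3, where 1.67% of all genes were) and 0 lower; at an unadjusted p under 0.05 the 6 fits had 1 to 31 higher, where 2.72% to 16.2% of all genes were, and 2 to 3 lower, where 4.65% to 10.4% were. Over all genes, 11 higher and 1 lower became 47 and 91 without the low-count filter, 12 and 2 with a minimum mean of 5 CPM, 426 and 584 with DESeq2, 396 and 412 with DESeq2 on all symbols, and 16 and 2 with limma-voom. They became 1127 and 1085 with library weights, 16 and 17 with library sets as a term, and 956 and 935 with the 3 libraries alone. Leaving out 1 library gave 0 to 250 higher and 0 to 199 lower. Both counts were 0 without NK replicate 1 or 2 or ILC1 replicate 1 or 2, with 1266 to 2026 genes at an unadjusted p under 0.05 in edgeR, and the most came without NK replicate 3. The replicate block gave 0 and 0 over all genes and 0 and 0 of the 50, with 1584 genes at an unadjusted p under 0.05, and a G2/M median of 1.66. Same-numbered libraries deviated from their group means with correlations of -0.36, -0.36 and -0.56, and whether a shared number marks a shared mouse or day is not given in the sources used here. The median of Ccnd2 and Ccnd3 moved from -0.68 to -0.17 with library sets as a term and to -0.21 with the 3 libraries alone. Both of these settings compare the cell types only between NK replicate 3 and ILC1 replicates 1 and 2. Leave-one-out medians ran from 0.81 to 2.29 for G2/M, 0.53 to 0.94 for G1/S and replication, -0.87 to -0.49 for Ccnd2 and Ccnd3 and -0.07 to 0.30 for the CDK inhibitors. Mcm6 (0.01) reversed to -0.033 with upper-quartile factors, -0.0026 with a minimum of 5 CPM, -0.034 with limma-voom and -0.032 with the replicate block, and ran from -0.13 to 0.21 with each library left out (below 0 without NK replicate 3, ILC1 replicate 1 or ILC1 replicate 2). Cdkn2c (0.11) ran from -0.072 to 0.30 with each library left out (below 0 without NK replicate 2 or ILC1 replicate 2). The cause was not tested. The spread between libraries, not counting error, limits these comparisons.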
